A study of Homo sapiens with 4 samples.

Results

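The genes described here are the cell cycle and DNA replication genes that APC ChIP peaks were assigned to in HCT-116 cells. They were chosen by name: cyclins, cyclin-dependent kinases (CDKs) and their inhibitors, CDC genes, E2F factors, the MCM, ORC, GINS and CDT1 genes, the RFC clamp loader, replicative polymerase subunits, Aurora and Polo kinases, and BUB genes. The choice was made with earlier results of these data known. Only protein-coding genes counted, and names that start with CDC42, a GTPase family, were left out. In this way 44 genes were found among 5031 protein-coding names in the peak lists. They held 41 of 6263 peaks in replicate 1 and 47 of 8393 peaks in replicate 2.

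Chromatin was immunoprecipitated with an antibody against APC in 2 biological replicates and sequenced, with a pre-cleared input sample for each. HCT-116 is an established human colon cancer line, a single line that carries wild-type APC and a β-catenin allele lacking Ser45, so that canonical WNT signaling is constantly on. All 4 samples shared this genotype, and no treated, APC-silenced or unrelated-antibody group was part of the comparison. Several months lay between the preparations, per the study's methods, so replicate and preparation date were the same split. The lists give for every peak a position on hg19, a width, the gene with the nearest transcription start site (TSS) and the distance to it. They give no read count, enrichment or p-value, so depth is unknown. The targeted protein itself, gene expression and cell cycle phase were not measured in these files.

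APC is a tumor suppressor that promotes β-catenin breakdown in the cytoplasm, and part of it is nuclear. Cyclins are the regulatory partners of CDKs, and cyclin D with CDK4 or CDK6 releases E2F factors from the retinoblastoma protein so that cells enter S phase. Origins are licensed when the origin recognition complex (ORC), CDC6 and CDT1 load the MCM helicase, which GINS and CDC45 then activate for the polymerases and the RFC-loaded clamp. CCND1, which encodes cyclin D1, is a widely cited WNT target in colon cancer cells.

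Sequences of 5 member regions are shown first because they hold the letters discussed with the results. All come from the GRCh37 assembly, plus strand, 5′ to 3′. Motif letters were read on the replicate 1 interval of each region throughout, unless another interval is named. Capitals mark matches on either strand to E2F letters in a longer form (TTTCCCGC or TTTCGCGC or TTTGCCGC or TTTGGCGC) or a shorter one (TTCCCGC or TTCGCGC or TTGCCGC or TTGGCGC), to the CHR element of cell cycle promoters (TTTGAA or TTCGAA), to AP-1 (TGACTCA or TGAGTCA), to TCF7L2, a DNA-binding partner of β-catenin (AACAAAG or ATCAAAG or TACAAAG or TTCAAAG), or to the USF box CACGTG, which reads the same on both strands. A TCF7L2 match TTCAAAG contains, on the other strand, the CHR letters TTTGAA. CDK5R1 (chr17:30813315-30813614, upstream of the gene) and CDC14B (chr9:99328667-99328955, intron 1) are the member regions near a TSS that hold TCF7L2 letters. CDK4 (chr12:58146231-58146499, the part of the peak outside annotated UTRs) is shown for its CACGTG boxes, CCND1 (chr11:69452793-69453092, intergenic, upstream) as the region that recurred at the cyclin D1 gene, and CDKN2B (chr9:22211647-22211915, intergenic, upstream) for its AP-1 letters. These last 3 were chosen after their values were seen. A match to letters describes the sequence and does not show that a factor is bound.
CDK4: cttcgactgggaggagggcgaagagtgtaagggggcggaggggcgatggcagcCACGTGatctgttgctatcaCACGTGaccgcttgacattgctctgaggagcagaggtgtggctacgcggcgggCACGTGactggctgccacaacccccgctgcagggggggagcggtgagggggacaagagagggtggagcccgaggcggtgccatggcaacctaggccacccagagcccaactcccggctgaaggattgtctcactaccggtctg
CDK5R1: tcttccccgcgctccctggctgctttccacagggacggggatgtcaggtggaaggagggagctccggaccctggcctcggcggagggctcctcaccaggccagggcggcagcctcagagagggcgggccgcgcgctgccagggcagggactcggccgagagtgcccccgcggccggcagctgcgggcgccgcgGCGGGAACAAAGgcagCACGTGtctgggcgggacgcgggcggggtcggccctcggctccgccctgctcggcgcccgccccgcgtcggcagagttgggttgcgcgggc
CDC14B: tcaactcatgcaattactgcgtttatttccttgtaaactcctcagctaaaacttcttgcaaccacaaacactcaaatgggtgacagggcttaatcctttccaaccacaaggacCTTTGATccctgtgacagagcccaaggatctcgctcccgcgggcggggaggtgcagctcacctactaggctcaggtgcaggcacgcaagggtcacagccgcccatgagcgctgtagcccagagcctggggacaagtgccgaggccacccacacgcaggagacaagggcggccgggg
CCND1: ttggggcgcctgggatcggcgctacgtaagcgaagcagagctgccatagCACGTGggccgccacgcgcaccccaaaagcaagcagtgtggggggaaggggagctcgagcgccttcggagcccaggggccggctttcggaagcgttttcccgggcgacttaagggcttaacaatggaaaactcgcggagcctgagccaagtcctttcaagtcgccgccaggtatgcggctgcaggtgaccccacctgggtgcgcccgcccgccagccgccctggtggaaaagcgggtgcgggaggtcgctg
CDKN2B: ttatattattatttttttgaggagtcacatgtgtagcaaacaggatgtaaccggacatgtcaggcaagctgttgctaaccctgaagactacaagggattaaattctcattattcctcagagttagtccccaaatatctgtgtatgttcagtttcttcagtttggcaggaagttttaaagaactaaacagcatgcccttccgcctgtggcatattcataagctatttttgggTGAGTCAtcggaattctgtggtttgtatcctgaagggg

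The shorter E2F letters occurred in 8 of the 12 member regions that lay within 1 kb of a TSS in both replicates, 10 matches in all. Each match is printed as 27 bases on the strand on which it reads as E2F letters, with the matched bases in capitals. TTCCCGC accounted for 6 of the 10 matches, TTGGCGC for 2, and TTCGCGC and TTGCCGC for 1 each. The positions are AURKAIP1 chr1:1310416-1310442, minus strand; CCNL1 chr3:156878030-156878056, minus strand; CCNT1 chr12:49110767-49110793, plus strand, and chr12:49110791-49110817, plus strand; CDK4 chr12:58145840-58145866, plus strand; CDK5R1 chr17:30813498-30813524, minus strand; CDK5RAP1 chr20:31989447-31989473, minus strand; E2F6 chr2:11606257-11606283, plus strand; and RFC4 chr3:186524233-186524259, plus strand, and chr3:186524265-186524291, minus strand.
AURKAIP1: ggcaacgcgaTTCGCGCgggggtgaac
CCNL1: gagggactagTTGGCGCgcggctgccc
CCNT1, first match: accgtgtatcTTCCCGCgagaaccgga
CCNT1, other match: ggattgagcgTTGGCGCcccgggtcag
CDK4: aaggccccacTTCCCGCccttgagcga
CDK5R1: gctgcctttgTTCCCGCcgcggcgccc
CDK5RAP1: aggagctcaaTTGCCGCttaagtccgt
E2F6: gcccgccatcTTCCCGCatgcgcagta
RFC4, first match: gtcgcctcagTTCCCGCcacggaacgg
RFC4, other match: taccggcgtaTTCCCGCcctgcttttc

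A region was called shared when the centres of a replicate 1 and a replicate 2 peak lay under 400 bp apart. Of the 44 genes, 31 were named in replicate 1 and 32 in replicate 2. Peaks in both replicates were assigned to 19 genes, and each of these 19 had at least 1 shared region. A further 12 genes had peaks in replicate 1 only and 13 in replicate 2 only. These were 9.09% and 9.85% of the 132 genes annotated under the rule, against 5.2% and 8.59% of all protein-coding genes. Of the 132 annotated genes, 88 had no assigned peak in the lists used here. The 19 genes with a shared region were 14.4% of the 132 (95% Clopper-Pearson interval 8.89 to 21.6%), against 11.5% of all 19086 protein-coding genes. A peak in either replicate was assigned to 33.3% of the 132, against 25.7% of all protein-coding genes. These shares are descriptions, since genes differ in how much sequence lies nearest to their TSS. The interval covers counting error only.

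By role, cyclins held 6 genes with a shared region of 17 annotated, and 10 cyclin genes had no peak. CDKs and their partners held 4 of 28, CDK inhibitors 2 of 10, CDC genes 2 of 22, clamp loader and polymerase genes 2 of 15, E2F factors 1 of 8, licensing and helicase genes 1 of 21, and the mitotic kinase and BUB names 1 of 11. The genes seen in 1 replicate were counted in the same way. The E2F, licensing, helicase, clamp loader and polymerase names, 44 annotated genes, contributed 11 of the 13 genes seen in replicate 2 only (25% of the 44, against 8.59% of all protein-coding genes) and 2 of the 12 seen in replicate 1 only (4.55% against 5.2%). The other 88 annotated genes contributed 10 genes seen in replicate 1 only (11.4%) and 2 seen in replicate 2 only (2.27%). This grouping was chosen after the counts were seen and carries no test. With 2 replicates, list length, preparation date and culture cannot be told apart as its source.

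**Figure D1:**
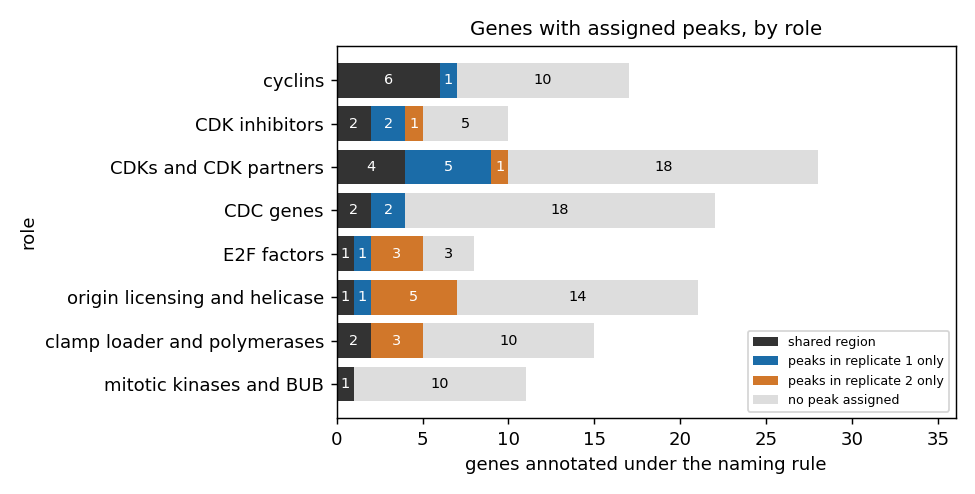
Number of annotated genes (horizontal axis) in each role (vertical axis), divided into genes with a region shared by both APC ChIP replicates, genes with peaks in replicate 1 only or replicate 2 only, and genes with no assigned peak. Cyclins had 6 genes with a shared region, and licensing and helicase genes had 1 shared gene and 5 seen in replicate 2 only.

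Among the cyclins, CCND1 carried the most peaks. In replicate 1 it had a peak of 355 bp centred at -2930 bp from the TSS (negative values are upstream) and a peak of 159 bp at 3440 bp, in intron 3. In replicate 2 there were 6 peaks, at -4438 bp (597 bp wide), -2971 bp (515 bp), -2017 bp (422 bp), 4979 bp (476 bp), 6192 bp (299 bp) and 13838 bp (602 bp), the last at the annotated transcript end. Only the region at -2930 and -2971 bp (chr11:69452767-69453120 in replicate 1) was shared, with centres 41 bp apart. The other cluster members of replicate 2 therefore rest on 1 library. The shared region lay in a CpG island and held 1 CACGTG box and no E2F, CHR, AP-1 or TCF7L2 letters.

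The remaining cyclin regions fell into promoter and distant ones. CCNT1, the cyclin of the elongation kinase P-TEFb, had a peak of 416 bp at 157 bp in replicate 1 and of 532 bp at 165 bp in replicate 2 (chr12:49110417-49110831), in the annotated first exon, with centres 8 bp apart. CCNL1, a cyclin linked to splicing, had 331 and 406 bp at 503 and 448 bp in its first exon (chr3:156877815-156878144). A distant CCNL1 region measured 345 and 637 bp at -14273 and -14446 bp (chr3:156892584-156892927) and lay in a CpG island. CCNG2, an atypical cyclin associated with cell cycle arrest, had 212 and 535 bp at -6 and -190 bp (chr4:78078246-78078456). Of these 4 regions, the CCNT1 centres were closest together and the CCNG2 centres, 183.5 bp apart, the farthest.

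The CCNE1 region, assigned to the gene of cyclin E1, lay in an intergenic CpG island at 32507 and 32371 bp from the TSS (chr19:30335105-30335712). Its width was 609 bp in replicate 1 and 398 bp in replicate 2. It was 1 of 2 shared member regions that were wider in replicate 1, the other being CDK5R1. CCNG1, the gene of cyclin G1, had its shared region at -58008 and -57758 bp (chr5:162806491-162806648) with centres 250 bp apart, the largest gap among the members. CCNB1IP1, which encodes a ubiquitin ligase named for cyclin B1, was the only gene of this group named in 1 replicate alone, with 155 bp at -16 bp in replicate 1. Beside their shared regions, CCNL1 had an unshared replicate 2 peak of 164 bp at -100921 bp and CCNG1 an unshared replicate 1 peak of 141 bp at -442825 bp, over an Alu repeat. CCNA2, CCNB1, CCND2, CCND3 and CCNE2 had no assigned peak.

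Of the CDKs, CDK4 had the widest shared region near a TSS among the members, by mean width rank. CDK4 is the G1 kinase that pairs with cyclin D. The peak was 671 bp wide in replicate 1 (chr12:58145830-58146499) and 907 bp in replicate 2 (chr12:58145724-58146629), wider than 89.1% and 89.0% of the peaks in the respective lists. Its centre lay at 66 and 54 bp from the TSS, 12 bp apart. The region held 4 CACGTG boxes, of which 3 are in the sequence printed above. At least 4 such boxes were found in 9 of 1341 shared regions near a TSS (0.671%). This count was not adjusted for region length, and the other shared regions near a TSS had a median width of 404 bp in replicate 1.

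CDK5R1 encodes p35, the activator of CDK5. Its peak measured 471 bp in replicate 1 and 469 bp in replicate 2, at -640 and -638 bp (chr17:30813231-30813700), and the centres were 2 bp apart, the smallest gap among the members. In the printed sequence the TCF7L2 letters overlap a shorter E2F match and lie next to a CACGTG box. CDK5RAP1, a tRNA-modifying enzyme first described as a CDK5 activator-binding protein, had 245 and 636 bp at 28 and 5 bp (chr20:31989226-31989469). CDK6, the other partner of cyclin D, had no shared region: its 2 replicate 2 peaks were 251 and 174 bp wide, at 81642 bp in intron 3 and at -118875 bp. A replicate 1 peak of 187 bp, centred 979.5 bp from the GENCODE start of CDK6, was assigned to LOC101927497 instead.

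The region named CDK11B is uncertain as to the gene. It measured 388 bp in replicate 1 (chr1:1655695-1656081) and 946 bp in replicate 2, at -29 and -127 bp, and was the widest member peak of replicate 2. GENCODE places the start of CDK11A there, not that of CDK11B. A peak of 414 bp in replicate 1 (chr1:1590340-1590752) and 813 bp in replicate 2, within 1 kb of the GENCODE start of CDK11B, was assigned to MMP23A in the lists. The CDK11B-named replicate 1 region aligned with the sequence around the other one over 374 bases, of which 353 (94.4%) were identical. Reads of these 2 copies may not have been separable.

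Single-replicate peaks of CDK genes were mostly promoter peaks of replicate 1. CDK10 (421 bp at 115 bp), CDK7 (272 bp at 143 bp), CDK18 (203 bp at 989 bp), CDK17 (133 bp at 215 bp) and CDK2AP1 (144 bp at -238 bp and 155 bp at -40 bp) had no replicate 2 peak. CDK7 encodes the CDK-activating kinase. CDK1 and CDK2, the kinases of mitosis and of S phase, had no assigned peak.

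**Figure D2:**
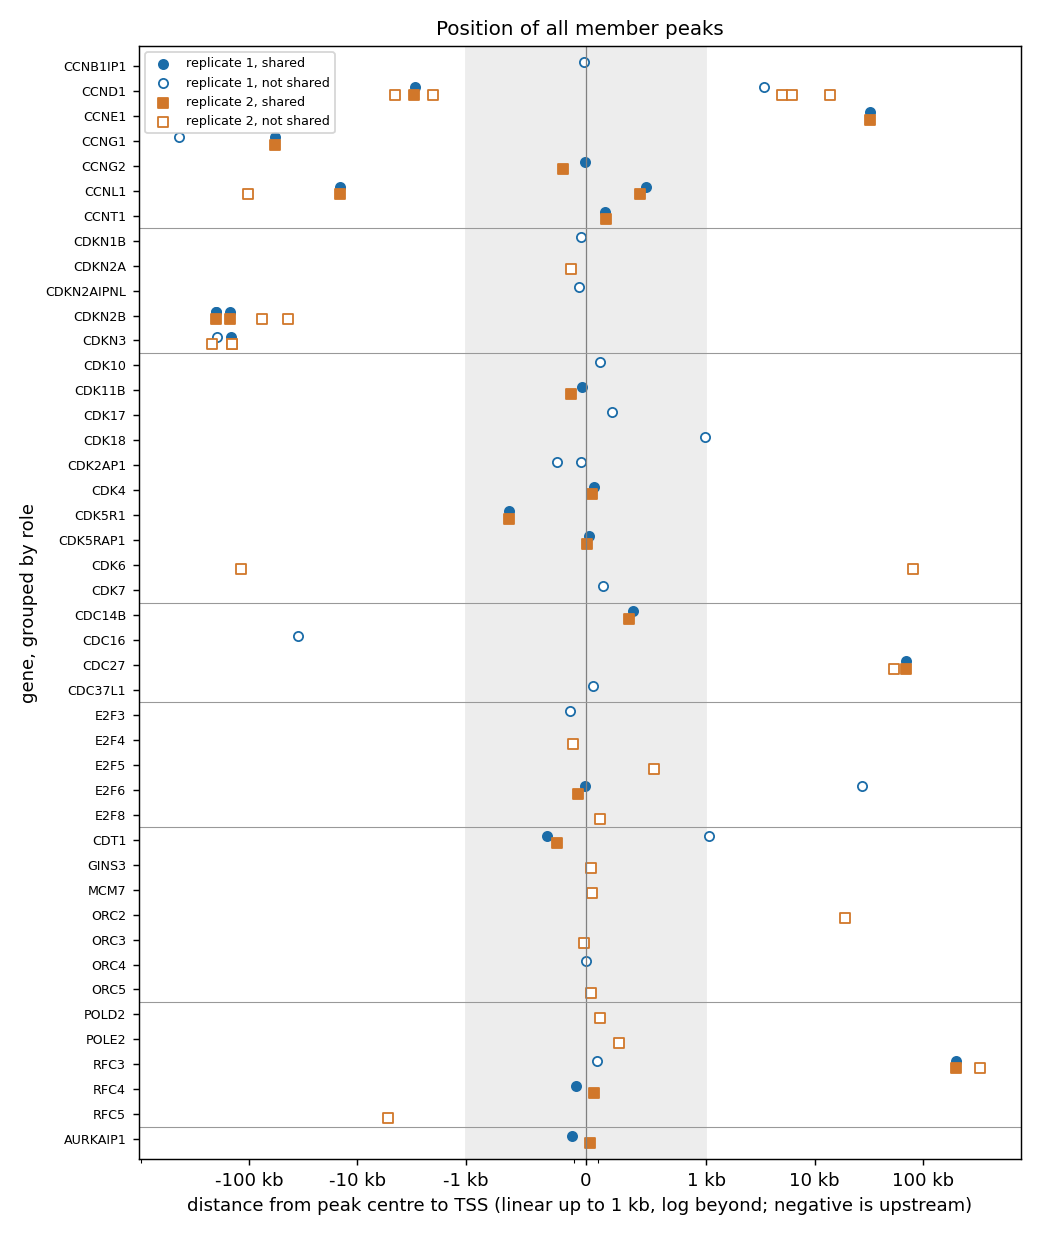
Distance from the peak centre to the TSS (horizontal axis, linear to 1 kb and logarithmic beyond, negative upstream) for every member peak, by gene in role order (vertical axis). Circles are replicate 1 and squares replicate 2, filled where shared, and the shaded band marks 1 kb to each side. Replicate 2 has 6 CCND1 peaks against 2 in replicate 1, with 1 shared.

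The shared regions assigned to CDK inhibitor genes were all distant from the TSS. CDKN2B encodes p15, an inhibitor of CDK4 and CDK6. A shared region at -149833 and -149849 bp measured 327 and 425 bp (chr9:22158983-22159308), with centres 16 bp apart. Farther upstream, replicate 1 had 2 neighbouring peaks of 270 and 155 bp at -202469 and -202716 bp (chr9:22211647-22211915 and chr9:22211952-22212105), where replicate 2 had 1 peak of 780 bp at -202594 bp. The 2 replicate 1 peaks thus count as 2 shared regions against 1 in replicate 2. Replicate 2 also had unshared peaks of 544 bp at -75433 bp and 419 bp at -43450 bp, both in introns of the antisense transcript CDKN2B-AS1. No CDKN2B peak lay within 1 kb of the TSS, and the assignment rests on distance alone.

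CDKN3 encodes a CDK-associated phosphatase. Its shared region was 499 bp wide in replicate 1 and 805 bp in replicate 2, at -144762 and -144609 bp (chr14:54718663-54719160), and it contained 2 TCF7L2 matches. Replicate 2 had a neighbouring peak of 679 bp at -143266 bp and another of 417 bp at -218829 bp, and replicate 1 a peak of 136 bp at -197881 bp, none of them shared. CDKN1B, which encodes p27, had a promoter peak in replicate 1 only (268 bp at -39 bp). CDKN2AIPNL, a small homolog of a CDKN2A-interacting protein, had 397 bp at -58 bp in replicate 1. The peak assigned to CDKN2A, the gene of p16 and ARF, was found in replicate 2 only, 179 bp wide at -120 bp. CDKN1A, the gene of p21, had no assigned peak.

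**Figure D3:**
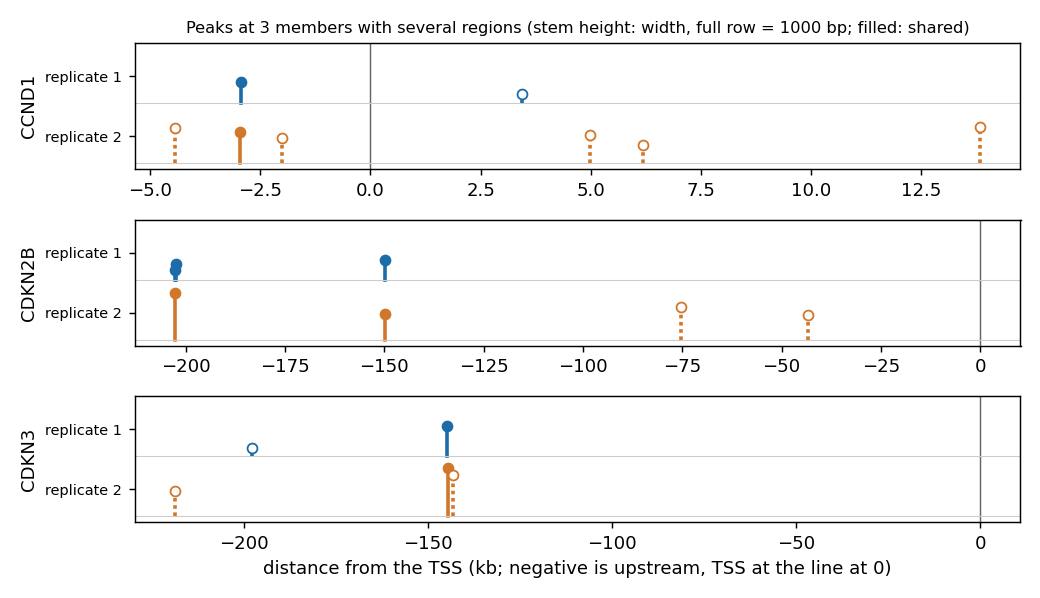
Peaks assigned to CCND1, CDKN2B and CDKN3 by distance from the TSS in kb (horizontal axis), with replicate 1 and replicate 2 as rows. Stem height is peak width, a full row being 1000 bp, and filled symbols with solid stems are shared. The only CCND1 stems that coincide are at -2930 and -2971 bp, and the CDKN2B and CDKN3 stems all lie upstream.

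CDC27, a subunit of the anaphase-promoting complex, had the widest shared member region. It measured 695 bp in replicate 1 and 920 bp in replicate 2 and lay in the last exon, in the 3′ UTR, at 69194 and 69158 bp from the TSS (chr17:45197138-45197831). It ranked 431 of 3984 shared regions by mean width rank, and CDK4 ranked 478. They were the only members among the widest 500, and no other member was among the widest 1000. Replicate 2 had an additional CDC27 peak of 375 bp in intron 14. CDC27 has pseudogene copies in the genome, and how reads matching several copies were handled is not given in the sources used here.

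CDC14B, a phosphatase, had a region of 290 bp in replicate 1 and 359 bp in replicate 2 at 392 and 361 bp, in intron 1 (chr9:99328667-99328955). CDC37L1, a relative of the kinase chaperone CDC37, had 376 bp at 61 bp in replicate 1 only. The CDC16 peak, 138 bp at -35122 bp, was also found in replicate 1 only and lay in an intron of CFAP97D2 in GENCODE. CDC6, CDC20, CDC25A and CDC45 had no assigned peak.

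E2F factors were found mainly in 1 replicate each. E2F6, a repressor without a retinoblastoma-binding domain, was the only E2F gene with a shared region, 330 bp in replicate 1 and 571 bp in replicate 2 at -5 and -64 bp (chr2:11606144-11606472). E2F3, an activator, had a peak of 620 bp at -131 bp in replicate 1 only, the widest unshared member peak of that replicate. E2F4 (522 bp at -111 bp), E2F5 (415 bp at 562 bp) and E2F8 (378 bp at 121 bp) were found in replicate 2 only. E2F1, E2F2 and E2F7 had no assigned peak.

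In the licensing and helicase group, CDT1 was the only gene with a shared region. CDT1 brings the MCM helicase to origins. Its peak was 335 bp wide in replicate 1 and 517 bp in replicate 2, at -324 and -240 bp (chr16:88869696-88870029). A narrower replicate 1 peak of 222 bp lay in exon 3, at 1068 bp. Promoter peaks in replicate 2 only were assigned to the helicase subunit MCM7 (526 bp at 54 bp), the GINS subunit GINS3 (430 bp at 46 bp), ORC3 (402 bp at -19 bp) and ORC5 (333 bp at 40 bp). The MCM7 and ORC3 peaks also had the GENCODE start of AP4M1 and of RARS2 within 1 kb. The ORC2 peak of replicate 2, 820 bp wide at 18913 bp, lay in an intron of ORC2 and over an Alu repeat, and ORC4 had a peak of 171 bp at 1 bp in replicate 1 only. MCM2, MCM3, MCM4, MCM5, MCM6, ORC1 and ORC6 had no assigned peak.

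RFC4, a subunit of the clamp loader, had nearly equal widths in the replicates, 515 and 525 bp, at -86 and 71 bp (chr3:186524120-186524633). Its centres were only 37 bp apart, so the 2 distances were not taken from the same start. RFC3, another subunit, had its shared region at 201874 and 202054 bp (chr13:34593972-34594188), with 218 and 391 bp, whereas its promoter peak of 206 bp at 91 bp was found in replicate 1 only. A second distant RFC3 peak of 640 bp at 339094 bp was found in replicate 2. POLD2 (381 bp at 117 bp) and POLE2 (303 bp at 277 bp), accessory subunits of the replicative polymerases, and RFC5 (327 bp at -5203 bp, in an LTR54B repeat) were found in replicate 2 only. RFC1, RFC2, POLA1 and POLE had no assigned peak.

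Of the names for mitotic kinases and BUB checkpoint genes, only AURKAIP1 was in the lists. It encodes an Aurora A-interacting protein that is also a mitochondrial ribosome component. The peak was 558 bp wide in replicate 1 and 694 bp in replicate 2, at -115 and 30 bp (chr1:1310417-1310973). The centres were 93 bp apart, so these 2 distances were not taken from the same start either. AURKA, AURKB, BUB1, BUB1B and PLK1 had no assigned peak.

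The share of member peaks found in both replicates was set against that of other peaks of protein-coding genes. In replicate 1, 22 of 41 member peaks (53.7%, 37.4 to 69.3%) were shared. For all replicate 1 peaks of protein-coding genes the share was 64.2%, and the difference from the 4866 other peaks was not significant (odds ratio 0.645, Fisher's exact test, two-sided, p = 0.19). In replicate 2, 21 of 47 (44.7%, 30.2 to 59.9%) were shared, against 47.2% of all peaks of protein-coding genes (odds ratio 0.904, Fisher's exact p = 0.771). With both lists cut to their wider 50% before pairing, 5 of 13 replicate 1 member peaks were shared, against 1652 of 2392 others (odds ratio 0.28, Fisher's exact p = 0.0302). In replicate 2 it was 5 of 16 against 1642 of 3221 (Fisher's exact p = 0.136). The cut removes narrower partners. The replicate 1 peaks of CCNE1, CDK5R1, RFC4 and CCNT1 lost replicate 2 partners of 398, 469, 525 and 532 bp in this way. This setting therefore cannot show whether wide member peaks recurred less often. The tests describe spread over regions of the same libraries, not over cultures.

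The position of the member regions was compared in the same way. Of the 22 shared regions, 12 (54.5%, 32.2 to 75.6%) had their centre within 1 kb of the TSS, against 42.6% of all 3148 shared regions of protein-coding genes. The difference from the 3126 other regions did not pass the test (odds ratio 1.62, Fisher's exact test, two-sided, p = 0.284). Over all replicate 1 peaks, shared or not, 61% of the members and 43.2% of the others lay within 1 kb (odds ratio 2.06, Fisher's exact p = 0.0262), and in replicate 2 46.8% and 35.8% did (odds ratio 1.58, p = 0.128). Of the unshared member peaks, 13 of 19 in replicate 1 (68.4%) and 10 of 26 in replicate 2 (38.5%) lay within 1 kb. Among the other unshared peaks of protein-coding genes 44.3% and 30% did. Distances over 50 kb were found for 9 of 41 member peaks of replicate 1 and 14 of 47 of replicate 2. For the other peaks of protein-coding genes the counts were 1141 of 4866 and 1782 of 6325. Counted from the gene instead of the peak, 16 of the 132 annotated genes (12.1%) had a peak centre within 1 kb of their own start in both replicates, whichever gene the peak was assigned to, against 8.51% of all protein-coding genes.

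Promoter peaks of the members that lay beside the starts of several genes were counted as well. The GENCODE starts of at least 2 protein-coding genes lay within 1 kb of 1 of 25 such peaks in replicate 1 (4%, ORC4 with MBD5) and of 2 of 22 in replicate 2 (9.09%). For other promoter peaks the shares were 19.5% and 19.9%, and neither difference passed Fisher's exact test (two-sided p = 0.0694 and 0.285).

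Shared member regions were of moderate width. The median was 340 bp in replicate 1 and 534 bp in replicate 2, against 427 and 640 bp for the partners of the 3126 other shared regions. The differences of -87 and -106 bp did not pass a two-sided permutation test of medians (p = 0.065 and 0.0543). Within 1 kb of a TSS the differences were -42.5 and -87.5 bp (permutation p = 0.439 and 0.15). Of all member peaks, 13 of 41 were wider than the list median of 371 bp in replicate 1 and 16 of 47 wider than the median of 532 bp in replicate 2. Unshared member peaks had medians of 171 and 416 bp, against 238 and 444 bp for the other unshared peaks of protein-coding genes. Replicate 2 gave the wider peak in 20 of the 22 shared regions, with a median ratio of 1.5 against 1.51 over the other shared regions.

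**Figure D4:**
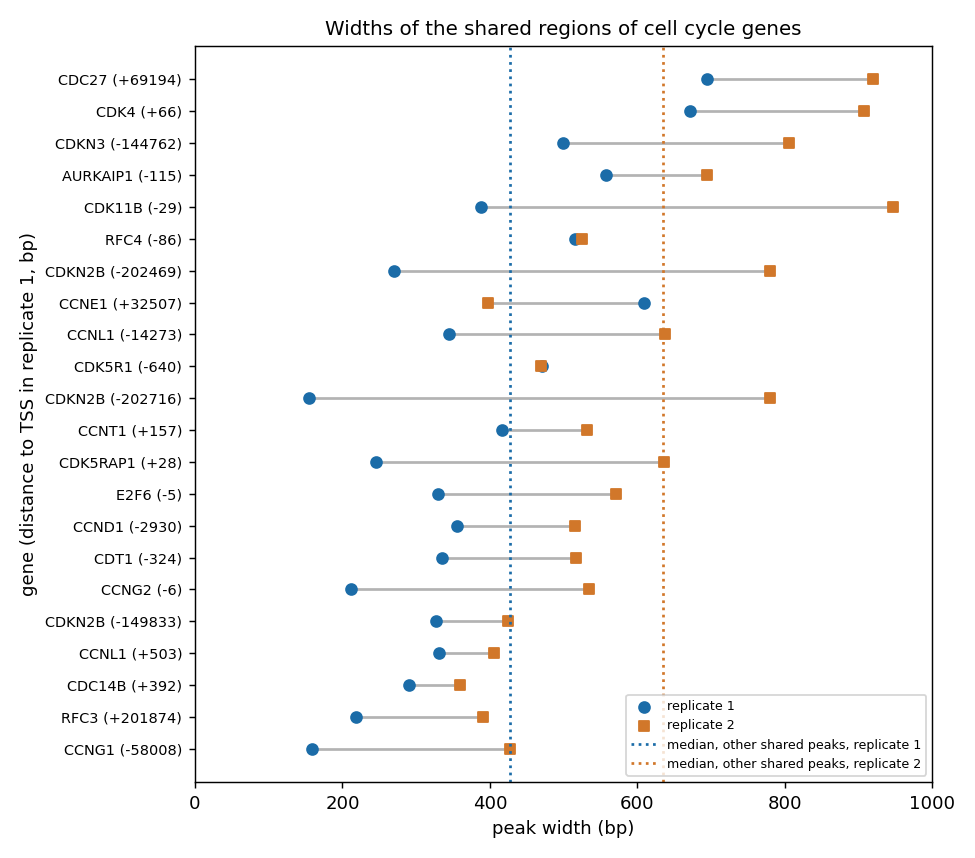
Peak width in bp (horizontal axis) of the shared member regions in replicate 1 (circles) and replicate 2 (squares), ordered by mean width rank, with the distance to the TSS beside each gene. Dotted lines mark the median width of the other shared peaks in each list, 427 bp in replicate 1 and 635 bp in replicate 2 with each peak counted once. CDC27 and CDK4 lie beyond both lines, and CCNE1 is clearly wider in replicate 1.

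In base composition the 12 shared member regions near a TSS had a median GC content of 66.7% (57.4 to 76.4%), against 65.2% in the others there. The 10 distant ones had a median of 42.9% (30.5 to 72.5%), against 44.1%. Among them, the CpG island regions of CCND1, CCNE1 and CCNL1 had 66.9, 72.5 and 63.4%.

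None of 8 motifs differed significantly between the 12 member regions near a TSS and the 1329 others. The longer E2F letters were found in 0 of 12 member regions, against 9.02% of all 1341 shared regions near a TSS, and the CHR letters in 0 of 12, against 12.7%. AP-1 letters were in 0 of 12 against 5.67%, and the NRF1 consensus in 0 of 12 against 5.37%. CCAAT boxes were in 3 regions (25%), those of AURKAIP1, CCNT1 and CDK5R1, against 37.3%. TCF7L2 letters were in 2 (16.7%), CDK5R1 and CDC14B, against 10.1%. CACGTG was in 5 (41.7%), those of CCNG2, CCNT1, CDK4, CDK5R1 and E2F6, against 34.7%, and the SP1 core GGGCGG in 9 (75%) against 72.3%. The smallest p was 0.344 (Fisher's exact test, two-sided), so 0 motifs passed at an unadjusted 0.05, and every Benjamini-Hochberg adjusted p was 1. On the replicate 2 intervals of the same 12 regions, most of them wider, E2F letters were in 1 (8.33%, against 12.7% of the others), CHR letters in 2 (16.7% against 22%) and the NRF1 consensus in 1 (8.33% against 7.15%). The shares of 0 for these 3 motifs thus did not hold on the replicate 2 intervals, while AP-1 letters were in 0 regions on either. In 300 bp around the replicate 1 centre, E2F, CHR and NRF1 matches were again in 0 of 12. The others had 6.85%, 8.35% and 3.84% there.

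With the shorter E2F letters in place of the longer, 8 of 12 member regions near a TSS (66.7%) had a match, against 370 of 1329 others (27.8%). With the longer letters left out, the adjusted p over 8 motifs was 0.0485 (Fisher's exact test, two-sided, unadjusted p = 0.00606). Adjusted over all 9 motifs searched, the longer letters included, it was 0.0546, so the call is lost when both forms count. The regions were those of AURKAIP1, CCNL1, CCNT1, CDK4, CDK5R1, CDK5RAP1, E2F6 and RFC4, whose matches are printed above. CCNG2, CDC14B, CDK11B and CDT1 had none. The member regions had a median ratio of observed to expected CpG of 1.00, against 0.85 in the others, and the part of CpG content in the match counts was not tested.

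The same letters were counted in the 10 distant shared regions. AP-1 letters were in 3 of them, 1 of CDC27 and 2 of CDKN2B, against 49% of the 1797 other distant regions. TCF7L2 letters were in 4 (CDC27, CDKN2B, CDKN3 and RFC3), against 46.5%, and CHR letters in 5 against 43.4%. CACGTG was in 2 (20% against 12.2%), the SP1 core in 3 (30% against 17%) and CCAAT in 3 (30% against 44.5%). The longer E2F letters were in 0, against 2%. On the replicate 1 intervals, the distant CCNL1 region was the only shared member region with the NRF1 consensus, which 0.39% of the other distant regions had. Its GC content was 63.4%, against a median of 44.1% in those other regions. Among all shared regions near a TSS, 5.37% had the consensus. No test was made on these counts.

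Assignment to the nearest RefGene TSS left some promoters of rule genes under the name of a neighbour. Peaks centred within 1 kb of the GENCODE start of 11 rule genes were assigned to another gene, for 8 genes in replicate 1, 8 in replicate 2 and 5 in both. The same count was not made over all protein-coding genes, so it cannot be read as a trait of the rule genes. The promoter shared by NUDT5 and CDC123, a translation factor assembly protein, had a shared region of 477 and 715 bp. FAF1 and CDKN2C, the gene of the CDK4 and CDK6 inhibitor p18, had 488 and 644 bp, with centres 390 and 370 bp from the CDKN2C start. YBEY and MCM3AP had 346 and 416 bp. AURKA, the Aurora A kinase, had a narrow peak of 216 bp at its CSTF1-assigned neighbour in replicate 1 only, and CDC25C (540 bp, assigned to FAM53C), MCM8 (445 bp, TRMT6) and POLE3 (773 bp, C9orf43) had theirs in replicate 2 only. CDK6 (187 bp, assigned to LOC101927497) and CDK9 (275 bp, MIR3960) had theirs in replicate 1 only, 979.5 and 896.5 bp from their starts. From such peaks the gene concerned cannot be told.

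Other genes of the cell cycle and replication, outside the naming rule, were read from a list of 61. The list was chosen with earlier results of these data known. A shared region was assigned to 9 of the 61 genes (14.8%, against 11.5% of all protein-coding genes) and a peak in either replicate to 21 (34.4%, against 25.7%). In 7 genes the shared region lay within 1 kb of the TSS: the checkpoint kinase ATR, the cohesin subunit SMC3, the replication fork factor TIMELESS, the anaphase-promoting complex subunits ANAPC4 and ANAPC5, and LIN52 and LIN54, subunits of the DREAM complex that represses cell cycle genes. ANAPC5 had 506 and 548 bp, at -59 bp in replicate 1, and LIN54 434 and 400 bp, at -151 bp. ATR and SMC3 each had 2 neighbouring replicate 1 peaks (190 and 230 bp, and 386 and 308 bp) where replicate 2 had 1, of 609 and 1006 bp. The MYBL2 and TFDP2 regions lay at -9476 and 59979 bp in replicate 1.

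The rest of that list was seen in 1 replicate or not at all. WDHD1, FBXO5, ATM and BIRC5 had peaks in replicate 1 only, and FEN1, MAD2L1, ANAPC1, PTTG1, RRM1 and INCENP in replicate 2 only. RRM2 and GADD45A had peaks in both that were not shared. The remaining 40 genes, among them PCNA, RB1, FOXM1 and MKI67, had no assigned peak.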

How the data were processed

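APC ChIP and input chromatin of HCT-116 cells were sequenced in 2 replicates. Per the methods of the study the authors aligned reads with BWA to hg19 and used MACS2 to call peaks separately per replicate, with its input as control, then set the peak score threshold so that AXIN2, DKK1 and MYC peaks were kept. For BWA and MACS2, versions are not given in the sources used here. Deposited by the authors were 1 peak list per ChIP replicate and a table of distances between replicates, with positions, distances and a score. In every row the deposited score equalled end minus start plus 2, so it was read as the peak width in bp. The input was not analysed here.

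The members and gene lists were chosen with earlier results of these data known. Centres under 400 bp apart made a region shared. Shares were compared by Fisher's exact test and median widths by permutation (100000 resamples), both two-sided and both tested on simulated data. Regions are not independent replicates. Members with a shared region were named with position and TSS distance, with widths for those near a TSS and for the 10 of best width rank, and single-replicate members were named by role. For each role, the sequence printed was that of the best-ranked shared region among those near a TSS that held E2F, CHR, AP-1 or TCF7L2 letters, where there was one. Sequence came from GRCh37 and gene starts from GENCODE 44 and RefSeq. Intervals are exact (Clopper-Pearson, 95%) and cover counting error only. Other sharing distances, width limits, comparators, motif windows and gene assignments were tried as alternatives. Python 3.11.15, SciPy 1.17.1, pandas 2.3.3, pysam 0.24.0 and Biopython 1.88 were used.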

Additional observations from a re-analysis of the deposited data

How the results depend on the processing

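No paired analysis was possible because the lists hold 1 group of ChIP samples, and the tests compare regions, not groups of samples. The 19 genes with a shared region became 18 with centres under 200 bp apart (without CCNG1), 23 with the nearest GENCODE start (with CDC123, CDC25B, CDK11A and MCM3AP added) and 13 within 10 kb of the TSS. In the wider 50% of each list 5 genes were left, and with 1 replicate alone 31 to 32. Restricting to the wider 50% also gave the replicate 1 odds ratio for sharing of 0.28 (Fisher's exact p = 0.0302), with narrower partners removed before pairing. It turned the width differences to 17.5 bp in replicate 1 and 164 bp in replicate 2 (permutation p = 0.841 and 0.159), with 5 member regions. Since this setting selects peaks by width, it cannot test the difference in width. Taking 1 region per gene moved the replicate 2 odds ratio for sharing from 0.904 to 1.04 (Fisher's exact p = 1). The replicate 2 width difference was -116 bp with sharing by overlap and -118 bp against all other peaks (permutation p = 0.0446 and 0.0441). The odds ratio for lying within 1 kb of a TSS ranged from 1.58 to 2.06 with 1 replicate alone. With only the widest shared region of each gene it was 1.23 (11 of 19 against 1165 of 2206, Fisher's exact p = 0.818). The shorter E2F letters were the only motif setting with a call, 1 motif at adjusted p = 0.0485 (Fisher's exact test). Adjusting over both E2F forms together, chosen after seeing the data, gave 0 motifs (smallest adjusted p 0.0546). In total 39 combinations of a result and an alternative were unchanged. They kept the direction and the side of the threshold, stayed within 1.5 times the gene count, or kept the number of motifs passing. Of the other combinations, 4 left these count limits, 3 reversed direction and 4 crossed to p under 0.05. The causes of these changes were not tested. Depth is unknown, so widths cannot be corrected for it, and the peak threshold of the authors also sets them.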
